A study of Rattus rattus with 12 samples.

Results

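The comparison set perigonadal fat of rats taken 3 days after injection of ice slurry against untreated perigonadal fat, transcript by transcript. Its members were the 3 RNA-seq libraries labelled as slurry at day 3 and the 3 labelled as control, picked by their titles, 6 of the 12 libraries of the series. The rats were male and of the Sprague-Dawley strain, although the labels name the organism as Rattus rattus. They were 8 weeks old and weighed 200 g at the start, and ate a diet with 60 kcal% fat over 9 weeks before treatment and onwards until they were killed. Slurry, a mix of ice with saline and glycerol, was given by surgery at 10 ml per rat to the left or the right pad only, which leaves a pad without slurry in the same animal, and such pads were the source of control tissue. Which rats gave the control libraries, and on which day, was not given in the sources used here. Incision, injected volume and cold came together on the treated side, so their parts in a difference cannot be told apart. The tissue label was not checked against marker genes, since the files do not pair transcript identifiers with genes.

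Perigonadal fat is a visceral white adipose depot, in which large lipid-filled adipocytes lie among stromal, vascular and immune cells. Adipocytes are injured by cold at temperatures that neighbouring cell types survive, an effect known as cryolipolysis, and dead adipocytes are cleared over the following days and weeks in an inflammatory reaction. RNA of bulk tissue is a mixture over all of these cells. Fewer cells of a type and less RNA per cell therefore cannot be told apart in the values below.

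PolyA-selected RNA was sequenced, and the authors divided the reads among 46726 annotated transcripts. The total of estimated counts was 22715819, 26559350 and 25874329 in control replicates 1 to 3. At day 3 it was 26216660, 22395408 and 28802360, so depth was similar in the groups. Abundance is given in TPM, the number of copies of a transcript per 1000000 transcripts after correction for length, which adds up to 1000000 in each library. Tests used the 25082 transcripts with at least 10 estimated counts in 3 or more of the 6 libraries, which held between 99.7% and 99.8% of the TPM of each library. The 21644 transcripts left out included 11388 without a read in any of the 6 libraries. Among the tested transcripts, 205 passed through the day 3 libraries alone and 178 through the control libraries alone, so the direction of these was set by the filter.

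Of all TPM, 19.4% sat on other transcripts in the mean of the day 3 libraries than in the mean of the control libraries. This share is the sum of all gains in mean TPM, which equals the sum of all losses. Computed between single libraries, it was 11.6%, 13.1% and 10.7% for the 3 control pairs. It was between 7.54% and 11.3% for the 3 pairs of day 3 libraries, and between 16.4% and 26.6% for the 9 pairs across the groups. Thus every pair across the groups lay further apart than any pair within a group. The mean distance across groups exceeded the mean distance within groups by 10.4 percentage points of TPM, the largest excess among the 10 ways to divide the 6 libraries into 3 and 3 (exact permutation test, one-sided p = 0.1). With 3 libraries against 3, this test and the two-sided one used below cannot give a p under 0.1.

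Gains and losses of TPM differed in how many transcripts carried them. Over all listed transcripts, tested or not, mean TPM was higher at day 3 in 22779 and lower in 12559. Fold changes of counts scaled by TMM factors were above 0 in 52.3% of tested transcripts, close to even. These values differ in the set of transcripts as well as in scale. The 22 largest losses made up 50% of the loss, whereas 371 transcripts were needed for 50% of the gain. The 10 largest losses held 34.1% of the loss, equal to 6.62% of all TPM. The 10 largest gains held 14.0% of the gain, equal to 2.72% of all TPM. In TPM, loss was thus carried by fewer transcripts than gain. In shares of counts, which are not divided by length, 65 transcripts made up 50% of the loss and 215 made up 50% of the gain, and the 10 largest held 23.8% of the loss and 27.6% of the gain. The larger part held by the 10 largest losses was therefore seen in TPM alone.

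Transcripts were placed in 5 abundance classes by their mean TPM over the 6 libraries, with both groups weighted equally. The 117 transcripts of 1000 TPM or more held 41.0%, 39.9% and 36.3% of TPM in control replicates 1 to 3, and 33.8%, 34.7% and 31.6% at day 3. There was no overlap between groups, and the mean went from 39.1% ± 2.45 (SD, n = 3) in control to 33.4% ± 1.57 (SD, n = 3) at day 3, a difference of -5.68 percentage points (exact permutation test, two-sided p = 0.1, 0.125 after Benjamini-Hochberg adjustment over the 5 classes). TPM that left this class sat in the classes below it. Transcripts of 10 to 100 TPM held 24.6% ± 1.59 in control and 28.0% ± 0.544 at day 3, and those of 100 to 1000 TPM held 31.8% ± 0.522 and 33.1% ± 1.03. For 1 to 10 TPM the share was 4.19% ± 0.385 in control and 5.11% ± 0.197 at day 3. In each of these 3 classes all day 3 libraries lay above all control libraries (exact p = 0.1, adjusted 0.125). At 100 to 1000 TPM the highest control library, at 32.42%, and the lowest day 3 library, at 32.44%, nearly met, and the difference of 1.26 percentage points was 0.666 without day 3 replicate 3. Under 1 TPM the share was 0.349% ± 0.041 and 0.414% ± 0.0379, with groups that overlapped (exact p = 0.2, adjusted 0.2). The scale and the class limits bear on these shares. In shares of counts, which are not divided by length, and with classes by the same limits on counts per 1000000, the class of 1000 or more differed by -1.60 percentage points and the class of 100 to 1000 by -0.685, so the latter had the opposite direction. With classes set by the libraries of day 1 and day 14, which are outside the comparison, the top class differed by -4.39 percentage points and the class of 100 to 1000 TPM by -0.283.

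**Figure D1:**
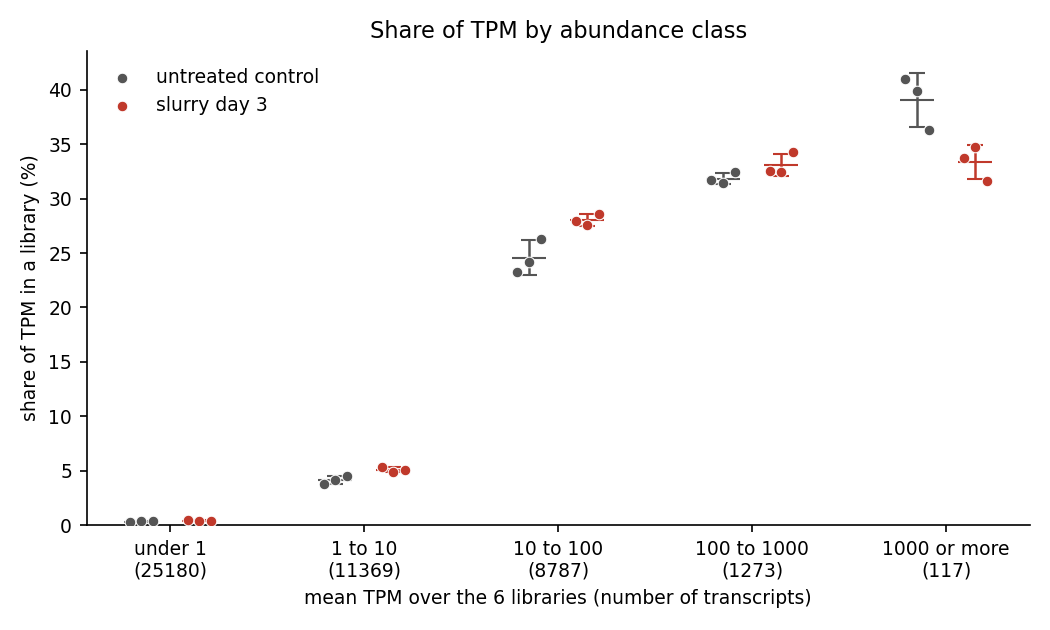
Share of TPM (vertical axis, percent of a library's TPM) held by each of 5 abundance classes (horizontal axis, mean TPM over the 6 libraries, with the number of transcripts). Points are libraries, bars are the mean and SD of 3 libraries. In the class of 1000 TPM or more, control libraries lie between 36.3% and 41.0% and day 3 libraries between 31.6% and 34.7%, and the next 3 classes lie higher at day 3.

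The most abundant transcripts of each library gave the same picture without fixed classes. The number of transcripts that held 50% of a library's TPM was 217, 254 and 336 in control and 398, 364 and 434 at day 3. The mean was 269 ± 60.9 in control and 399 ± 35.0 at day 3 (SD, n = 3, exact permutation test, two-sided p = 0.1). The 10 most abundant transcripts of a library held 17.7% ± 1.91 of TPM in control and 13.0% ± 1.65 at day 3, and the 100 most abundant held 38.1% ± 2.75 and 32.5% ± 1.58 (exact p = 0.1 for each). The single most abundant transcript held 3.44% ± 0.575 and 2.80% ± 0.499, with overlapping groups (exact p = 0.3). After adjustment of these exact permutation tests over the 4 measures, the p was 0.133 for the first 3 and 0.3 for the last. The lists of the 10 most abundant by group mean shared 7 transcripts, and 9 of the 10 most abundant in control had lower TPM at day 3 without overlap, with ratios of day 3 to control from 0.422 to 0.775. The most abundant transcript overlapped between groups and had a ratio of 0.813. Together these 10 transcripts held 18.2%, 19.2% and 15.5% of TPM in control and 11.6%, 14.4% and 10.4% at day 3. Since they were ranked by control values, which favours a fall, these values are a description. Ranked by the mean of the day 1 and day 14 libraries, 8 of the 10 most abundant were lower at day 3 without overlap and 0 higher, and together they held 17.9%, 19.0% and 15.3% in control and 11.7%, 14.6% and 10.5% at day 3. Of these 10, 9 were also among the 10 of control. Over all tested transcripts, 26.5% were higher and 9.73% lower in TPM without overlap. At 1000 TPM or more 49.6% were higher and 23.1% lower, so the falls of these 10 do not stand for that class.

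Fold changes were small in the middle of the distribution of every class. Over all 25082 tested transcripts the median log2 fold change, day 3 against control, was 0.032, with quartiles of -0.39 and 0.47. The median was 0.068 under 1 TPM, 0.086 at 1 to 10 TPM, 0.0043 at 10 to 100 TPM, -0.066 at 100 to 1000 TPM and -0.057 at 1000 TPM or more. The share of transcripts above 0 was 54.9% at 1 to 10 TPM and 42.7% in each of the 2 most abundant classes. These medians are close to the shift that a choice of scaling makes. With library totals in place of TMM factors the median of all transcripts was 0.11, and as a log2 ratio of mean TPM it was 0.27. Relative to the median of all transcripts, the class of 100 to 1000 TPM stood at -0.098 with TMM factors and at -0.081 as ratios of TPM, and the class of 1000 TPM or more at -0.089 and -0.052, although their own medians were above 0 with library totals and with TPM. More than 2-fold higher at day 3 were 21.5% of transcripts under 1 TPM, 14.0% at 1 to 10, 4.83% at 10 to 100, 3.61% at 100 to 1000 and 4.27% at 1000 TPM or more. More than 2-fold lower were 18.4%, 11.3%, 6.34%, 10.2% and 11.1% in the same order, so this share was smallest at 10 to 100 TPM and larger again above. From 100 TPM upward, changes of more than 2-fold were more often downward with TMM factors, with library totals and as ratios of TPM, whereas at 10 to 100 TPM the ratios of TPM gave 7.80% higher and 4.30% lower.

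**Figure D2:**
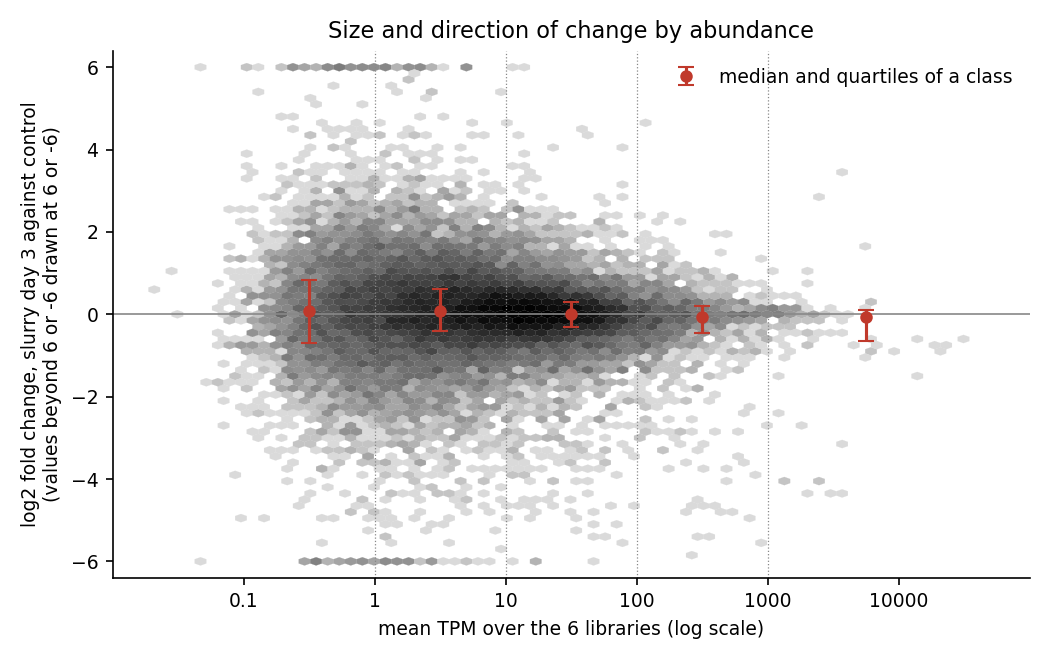
Log2 fold change, slurry day 3 against control (vertical axis), against mean TPM over the 6 libraries (horizontal axis, log scale) for the 25082 tested transcripts, with darker cells holding more transcripts on a log scale. Red points and bars are the median and quartiles of each class, drawn at the middle of the class, and dotted lines are class limits. The medians run from 0.086 at 1 to 10 TPM to -0.066 at 100 to 1000 TPM, a tilt smaller than the quartile range of any class.

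In CPM, counts scaled by library total and by a normalization factor, the 3 day 3 libraries all lay above the 3 control libraries for 3908 transcripts (15.6% of those tested), and all lay below for 3942 (15.7%). In shares of counts, without a normalization factor, the same counts were 4525 (18.0%) and 3341 (13.3%), and in TPM they were 6655 (26.5%) and 2440 (9.73%), so the balance of directions depends on the scaling. By class, the share not overlapping and higher in CPM was 9.92% under 1 TPM, 15.0% at 1 to 10, 18.4% at 10 to 100, 18.4% at 100 to 1000 and 20.5% at 1000 TPM or more. The share not overlapping and lower was 8.82%, 11.9%, 21.0%, 32.4% and 31.6% in the same order. With TMM factors the lower side thus exceeded the higher side from 10 TPM upward. In shares of counts it did so from 100 TPM upward, with 22.1% higher and 17.2% lower at 10 to 100 TPM. In TPM the higher side was the larger in every class, with 38.1% against 20.8% at 100 to 1000 TPM and 49.6% against 23.1% at 1000 TPM or more. Replicates were also closer in the abundant classes. The median absolute log2 ratio between 2 libraries was 0.177 within control, 0.132 within day 3 and 0.264 across groups at 1000 TPM or more, against 0.451, 0.367 and 0.539 at 1 to 10 TPM.

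Separated changes had similar median sizes in both directions, while more of the largest were downward. The median log2 fold change of the transcripts that did not overlap was 0.88 for the higher and -0.85 for the lower set. More than 2-fold were 1699 of the higher and 1675 of the lower set, and more than 4-fold by fitted values 557 and 765. With each fold against a group at 3 counts or fewer set to its lower bound, 209 of the higher and 349 of the lower set were more than 8-fold. The median size shrank with abundance in the higher set, from 2.05 under 1 TPM to 0.58 at 10 to 100 TPM and 0.23 at 1000 TPM or more. In the lower set it was -2.04 under 1 TPM, -0.64 at 10 to 100 TPM and -0.85 at 1000 TPM or more, where 8 of the 37 lower transcripts and 1 of the 24 higher ones were more than 8-fold. Summed over the set, the 3942 lower transcripts held 50.2%, 46.4% and 43.1% of TPM in control and 28.2%, 31.1% and 26.7% at day 3. The 3908 higher transcripts held 10.0%, 11.9% and 12.4% in control and 22.2%, 20.1% and 22.6% at day 3. These sums describe sets chosen by the comparison itself and carry no test.

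The thresholds for a call were a Benjamini-Hochberg adjusted p below 0.05 together with a fold change above 2. By these, 4 transcripts passed edgeR's quasi-likelihood test with the 12 libraries in 1 fit, 3 that rose (0.012% of those tested) and 1 that fell (0.00399%). With upper-quartile factors or library totals the counts were 3 and 2. Without adjustment, 4400 transcripts had a p under 0.05, of which 2113 were higher and 2287 lower, and with library totals in place of TMM factors 2436 were higher and 1898 lower, so the direction of the majority turned with the scaling. Fitted with the control and day 3 libraries alone, edgeR passed 902 transcripts, 307 higher (1.22%) and 595 lower (2.37%). DESeq2 on the 12 libraries passed 1485 of 24956 with an adjusted p, 711 higher (2.85%) and 774 lower (3.1%). The 4 transcripts were among both of these, and 761 were shared by the 902 and the 1485, which is 84.4% of the former and 51.2% of the latter. The number of transcripts called thus depended on the fit. All 902 had groups that did not overlap, beside 15.6% of all tested transcripts higher and 15.7% lower without overlap in CPM. The calls and the overlap rest on the same libraries, so this count adds no support. The number called also depended on single libraries. The 902 became 412, 494 and 996 without control replicate 1, 2 or 3, and 99, 267 and 0 without day 3 replicate 1, 2 or 3, where for the last 3921 had an unadjusted p under 0.05. With library totals there were 906, 362 higher and 544 lower. With a replicate block there were 27, 1 higher and 26 lower, and with the bias-adjusted method 1285, 479 higher and 806 lower. In 3 of the 4, all libraries of the lower group were at 0 counts, so they entered the test through the other group alone and their direction was set by the filter, which leaves the p-values of these 3 as descriptions. For the same reason these 3 missed the filter once a library of the group that carried them was left out, so the fall could not be tested without a control library, nor 2 of the rises without a day 3 library. Without control replicate 1, 2 or 3 the calls were 5, 12 and 21, of which 5, 10 and 21 were higher. Without day 3 replicate 1, 2 or 3 they were 2, 4 and 4, of which 1 was higher in each case. The split by direction in these counts is set in part by the filter. Of the 4, those still tested were 3 without a control library, of which 2, 2 and 3 passed, and 2 without a day 3 library, of which 2 passed in each case.

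By class, the fit of the 2 groups alone had its excess of lower transcripts mainly from 10 TPM upward, and with library totals it passed 165 higher and 268 lower at 10 to 100 TPM, 26 and 93 at 100 to 1000, and 4 and 9 at 1000 TPM or more. With TMM factors it passed 25 higher and 26 lower under 1 TPM, 126 and 163 at 1 to 10, 131 and 303 at 10 to 100, 22 and 93 at 100 to 1000, and 3 and 10 at 1000 TPM or more. As shares of the tested transcripts of a class, the higher calls were 0.623%, 1.16%, 1.49%, 1.73% and 2.56% in the same order, and the lower calls were 0.648%, 1.50%, 3.45%, 7.31% and 8.55%. Both shares were larger in more abundant classes, the lower calls more steeply so. DESeq2 passed 358 higher and 252 lower at 1 to 10 TPM, and 33 higher and 103 lower at 100 to 1000 TPM. All 4 transcripts of the fit over 12 libraries were under 10 TPM in the mean of the 6 libraries. The 595 lower transcripts held 11.5%, 8.57% and 8.74% of TPM in control and 1.99%, 1.81% and 1.85% at day 3. The 307 higher transcripts held 0.552%, 0.612% and 0.591% in control and 3.22%, 2.02% and 3.19% at day 3.

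The rise with the largest fold change among the 4, with at least 10 TPM on average at day 3, was ENSRNOT00000105301.1, a transcript of 5822 bases. It had 0 counts in each control library and 1359, 271 and 1311 counts at day 3, or 15.6, 3.42 and 14.0 TPM. It is among the 205 transcripts that passed the filter through day 3 alone. Against 3 counts per control library it was at least 289-fold higher. Its edgeR Benjamini-Hochberg adjusted p was 0.0406, a description only, since the filter set its direction. Over 12 alternatives the adjusted p lay between 2.7e-16 with DESeq2 and 0.149 with edgeR. No day 3 library was left out in these alternatives. The edgeR adjusted p was above 0.05 with a replicate block and without control replicate 1 or 2. At day 1 it had 3.91, 10.5 and 6.56 TPM and at day 14 10.8, 10.3 and 17.0, so it was present in all slurry libraries. Another rise, of 9516 bases, also among the 205, had no count in control and had 10.2, 13.6 and 9.46 CPM at day 3. This was at least 87.7-fold higher (edgeR adjusted p = 0.00114, likewise a description). The last rise, of 7412 bases, had counts in all 6 libraries and went from 8.64, 8.01 and 6.55 CPM in control to 41.8, 57.4 and 42.6 CPM at day 3, a log2 fold change of 2.61 (SE 0.22, edgeR adjusted p = 0.00317). The fall, of 4464 bases, is among the 178 transcripts that passed through control alone. It went from 6.86, 15.2 and 11.1 CPM in control to 0 counts in each day 3 library. It was thus at least 95.0-fold lower (edgeR adjusted p = 0.00114, likewise a description). At day 1 it stood at 5.45, 4.15 and 5.75 TPM and at day 14 at 3.95, 5.96 and 4.71, against 2.19, 5.30 and 4.30 in control.

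No fall at 10 TPM or more in control passed the thresholds in the fit over 12 libraries, and the one with the smallest p was ENSRNOT00000013043.7, of 4354 bases. It had 83.6, 63.0 and 110 TPM in control and 32.3, 30.5 and 37.2 TPM at day 3. The groups were well apart, with a log2 fold change of -1.62 (SE 0.20, edgeR adjusted p = 0.0545). Over 16 alternatives the adjusted p lay between 2.2e-11 with DESeq2 and 0.2 with edgeR, and 6 gave a p under 0.05. The lowest with edgeR was 0.0171. Day 1 libraries had 57.7, 70.3 and 61.0 TPM and day 14 libraries 25.1, 31.5 and 30.6, so the low level was also found at day 14.

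The largest gain of TPM without overlap was that of ENSRNOT00000005311.7, a transcript of 5825 bases. It had 695, 519 and 406 TPM in control and 8245, 3510 and 8498 TPM at day 3. Each day 3 library was several times above the highest control library, and day 3 replicate 2 was the lowest of them. The log2 fold change was 3.39 (SE 0.87), with an edgeR adjusted p of 0.1 over 12 libraries and 0.0262 over the 2 groups. Over 16 alternatives the adjusted p lay between 4.0e-04 with DESeq2 and 0.28 with edgeR, and 2 gave a p under 0.05. The transcript stood at 132, 733 and 189 TPM at day 1 and at 5081, 1138 and 877 TPM at day 14. The largest loss was that of ENSRNOT00000014701.8, of 656 bases, with 28980, 19620 and 15260 TPM in control and 5763, 13510 and 7685 TPM at day 3. There was no overlap, yet day 3 replicate 2 came near control replicate 3. The log2 fold change was -1.53 (SE 0.62, edgeR adjusted p = 0.235). Over 16 alternatives the adjusted p lay between 0.0704 with DESeq2 and 0.547 with edgeR, and none gave a p under 0.05. The difference between group means was -12300 TPM, and the transcript had 3125, 16780 and 6643 TPM at day 1 and 15830, 21070 and 27010 TPM at day 14.

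The 20 largest losses among transcripts whose groups did not overlap fell into sets of unlike size of change. The most abundant transcript, whose groups overlapped, is therefore not among them, although its mean went from 34420 TPM in control to 27980 TPM at day 3. In 9 of them the fold change fitted by edgeR was more than 8-fold downward, and together these held 5.02%, 2.94% and 3.61% of TPM in control and 0.357%, 0.206% and 0.321% at day 3. In 9 others the fitted change was 2-fold or less, and together these held 12.8%, 13.9% and 11.7% in control and 8.68%, 10.2% and 7.61% at day 3. Between group means the former differed by -3.56 and the latter by -3.95 percentage points of TPM. Within these 20, large decreases and modest decreases of very abundant transcripts thus had similar parts in the loss. The overlapping most abundant transcript, with a ratio of day 3 to control of 0.813, would add to the modest decreases. Among the 20 largest gains of transcripts whose groups did not overlap, 1 was more than 8-fold and 11 were 2-fold or less. Together these 20 gains held 2.23%, 2.75% and 2.76% of TPM in control and 6.17%, 4.85% and 6.20% at day 3. None of the 40 passed edgeR's test over 12 libraries, with adjusted p between 0.0774 and 0.235 for the losses and between 0.0911 and 0.724 for the gains. Over the 2 groups alone 9 losses and 5 gains had an adjusted p under 0.05, and with DESeq2 19 and 8 did.

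**Figure D3:**
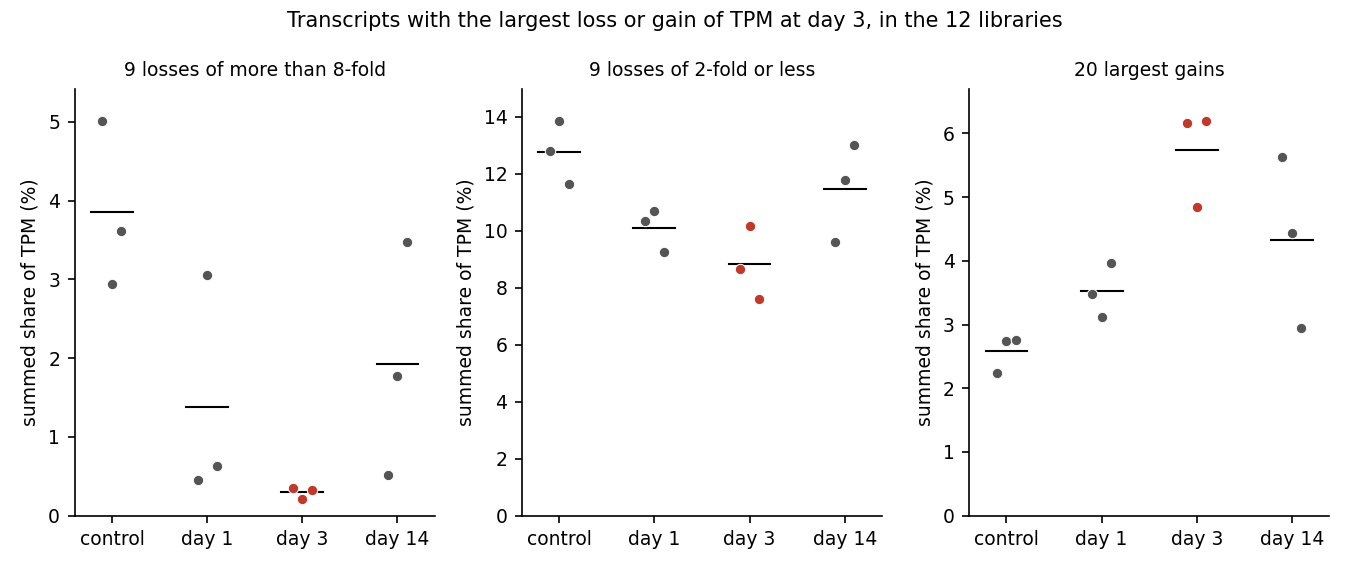
Summed share of TPM (vertical axes, percent) in each of the 12 libraries (points, 3 per group, lines at the group mean) of picked transcripts. They were picked for the largest loss or gain between control and day 3 among transcripts whose groups did not overlap. The 9 losses with a fitted fold change of more than 8 hold 2.94% to 5.02% in control and at most 0.357% at day 3, and day 1 and day 14 each include a library close to control.

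The libraries of day 1 and day 14 place the day 3 values within the time course. Against control, 14.9% of TPM sat on other transcripts at day 1 and 13.8% at day 14, beside 19.4% at day 3, where all 3 comparisons share the control libraries. The distance of single libraries to the control mean was 20.5%, 18.1% and 21.7% of TPM at day 3, 21.2%, 9.86% and 20.9% at day 1, and 20.7%, 15.9% and 12.8% at day 14. Day 3 libraries thus lay at similar distances from control, whereas day 1 replicate 2 and day 14 replicate 3 lay nearer to it than the other libraries of their day. The 9 losses of more than 8-fold were likewise highest in these libraries within day 1 and within day 14, with 0.455%, 3.06% and 0.628% of TPM at day 1 and 0.52%, 1.77% and 3.48% at day 14. The 595 lower transcripts held 1.66%, 8.75% and 2.45% of TPM at day 1, and in the day 14 libraries they held 2.97%, 6.24% and 10.6%. The 307 higher ones held 0.835%, 0.857% and 0.814% at day 1 and 2.06%, 1.06% and 0.729% at day 14. All of these sets were chosen by the comparison of day 3 with control, which favours values at other days that lie nearer to control, so their sums are a description. Whether days differed from each other in these sums was not tested. The median tagwise dispersion of edgeR, a measure of spread between replicates, was 0.157 within day 3, 0.237 within control, 0.293 within day 1 and 0.196 within day 14. It was 0.160 in the fit over 12 libraries and 0.166 in the fit of control and day 3 alone. Why the fits differed in their number of calls was not tested.

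Transcript length moved with the direction of change. The median log2 fold change was -0.18 for the 344 tested transcripts under 500 bases, -0.11 at 500 to 1000, -0.061 at 1000 to 2000, 0.064 at 2000 to 5000 and 0.22 for the 3808 of 5000 bases or more, and with library totals the class of 1000 to 2000 bases was at 0.016. Transcripts that did not overlap had a median length of 3095 bases in the higher and 2180 bases in the lower set. Transcripts of 5000 bases or more held 3.07% ± 0.394 of TPM in control and 4.68% ± 0.571 at day 3 without overlap (exact permutation test, two-sided p = 0.1, 0.25 after adjustment over 5 length classes). Those of 500 to 1000 bases held 27.2% ± 1.25 and 24.8% ± 0.933 (exact p = 0.1, adjusted 0.25). Within abundance classes the median for transcripts shorter than 1000 bases and for longer ones was 0.13 and 0.068 under 1 TPM, where only 42 were short, -0.043 and 0.093 at 1 to 10 TPM, -0.16 and 0.019 at 10 to 100, -0.16 and -0.040 at 100 to 1000, and -0.061 and 0.0088 at 1000 TPM or more. The shorter transcripts thus had the lower median in each class except that under 1 TPM. The difference between length and effective length, which follows the fragment lengths of a library, had a median of 189, 194 and 185 bases in control and 203, 191 and 197 at day 3 among transcripts of 2000 to 5000 bases. Its part in the trend with length was not tested.

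Some transcripts were found in only 1 of the 2 compared groups. No count in control and at least 10 in each day 3 library were seen for 88 transcripts, with a median of 1.57 TPM and a highest of 29.1 TPM at day 3. The reverse held for 61 transcripts, with a median of 1.93 TPM and a highest of 102 TPM in control. The 88 made up 0.0307%, 0.0231% and 0.0255% of TPM in the day 3 libraries, and the 61 made up 0.0283%, 0.0217% and 0.0295% in the control libraries. Presence in only 1 of the 2 compared groups thus accounted for little of the TPM that moved. In the other slurry groups, 11 of the 88 had at least 10 counts in each day 1 library and 30 in each day 14 library. Only 4 of the 88 and 3 of the 61 had no count at day 1 and day 14. Replicates of a group could differ in the same way. At most 3 counts in a library and at least 100 in another of the same group were found for 1078 tested transcripts in control and 886 at day 3.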

How the data were processed

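Each condition had 3 libraries, which the study's methods call biologic replicates. The library preparation kept polyA RNA and the strand of origin. The authors checked reads with FastQC 0.11.3 and quantified transcripts with Salmon, whose version was not given in the sources used here. The methods name an index of Ensembl transcripts of mRatBN7.2, whereas the labels name build rn6. The deposited estimated counts are the reads that the authors' Salmon run assigned to each transcript, without normalization. The deposited TPM values were computed by the authors' Salmon run from these counts and effective lengths. The gene table at hand, of 32100 genes, held 0 of the 46726 transcript identifiers, so no transcript was given a gene name.

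Estimated counts were rounded to whole numbers. Transcripts with at least 10 counts in 3 or more of the 6 libraries were tested with edgeR 4.0.16 in R 4.3.3 (TMM, robust glmQLFit, glmQLFTest) on all 12 libraries, with Benjamini-Hochberg adjustment over the 25082 tested. The script was tested on simulated counts. CPM are rounded counts divided by the tested transcripts' library totals and TMM factors, and shares of counts are rounded counts divided by library totals alone. The share of TPM that moves is the sum of positive differences between group means. A fold change against a group at 0 is a lower bound against 3 counts per library. The SE of a log2 fold change was derived from edgeR's test, as its absolute value divided by the square root of the F statistic. Single values were tested by exact permutation of the 6 libraries. The 4 identifiers are, in each direction, the largest fold change past the thresholds with groups that did not overlap and a mean of at least 10 TPM in the higher group, or else the smallest p, and the largest change in mean TPM without overlap. The 3 other called transcripts were added after their values were seen, and are given by length. The comparison, classes and alternatives were chosen with earlier results of these data known. Alternatives were DESeq2 1.42.0, the 2 groups alone, other normalizations and filters, the bias-adjusted quasi-likelihood method, a replicate block, other class definitions, shares of counts in place of TPM and leaving out each library.

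Depth was between 22395408 and 28802360 estimated counts per library, with 3 libraries per group. Within each group, no pair of libraries had counts alike enough to be the same library deposited again (the chi-square statistic was at least 40.5 times its degrees of freedom).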

Additional observations from a re-analysis of the deposited data

How the results depend on the processing

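The direction of the TPM shift held under every alternative for the class of 1000 TPM or more and for the number of transcripts that hold 50% of TPM, which stayed 104 to 163 larger at day 3 when any library was left out. The share of TPM that moves was 21.8% in shares of counts in place of TPM and 17.5% to 21.5% without each library in turn. With classes set by the control libraries, the differences in share were 0.371, 1.60 and 2.39 percentage points under 1 TPM, at 1 to 10 TPM and at 100 to 1000 TPM, and -8.33 at 1000 TPM or more. In shares of counts, with the same limits set on counts per 1000000, they were 0.304 at 1 to 10, 1.95 at 10 to 100, -0.685 at 100 to 1000 and -1.60 at 1000 or more. With classes set by day 1 and day 14 the class of 100 to 1000 TPM turned to -0.283. The cause of these turns was not tested. Without each library in turn the differences were 0.0433 to 0.0838 under 1 TPM, 0.735 to 1.12 at 1 to 10 TPM, 2.76 to 4.31 at 10 to 100, 0.666 to 1.59 at 100 to 1000 and -7.06 to -4.72 at 1000 TPM or more.

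Class medians of the log2 fold change turned sign under several settings. From the lowest class to the highest, they were 0.46, 0.064, -0.048, -0.15 and -0.27 with classes by the control libraries, 0.14, 0.16, 0.079, 0.012 and 0.020 with library totals, and 0.25, 0.32, 0.25, 0.19 and 0.22 as ratios of mean TPM with a pseudocount of 0.1. With a pseudocount of 1 the last 4 were 0.25, 0.24, 0.19 and 0.22. Without each library in turn they were -0.054 to 0.15 under 1 TPM, 0.054 to 0.097 at 1 to 10 TPM, -0.019 to 0.022 at 10 to 100 TPM, -0.11 to -0.037 at 100 to 1000 TPM and -0.14 to -0.012 at 1000 TPM or more. With library totals the length class of 1000 to 2000 bases turned to 0.016.

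The 4 calls became 1485 with DESeq2, 902 with the 2 groups alone, 125 with the bias-adjusted method, 1 with at least 10 counts in each of the 6 libraries, and 2 to 21 without each library. Of the 125, 86 were higher and 39 lower, whereas the 902 and the 1485 held more lower than higher calls. The counts were 4 or 5 with upper-quartile, RLE or no normalization factors, with filterByExpr, with no filter beyond 1 count and with no fold threshold. In the fit of the 2 groups alone, alternatives chosen after seeing the data gave 2104 calls with DESeq2, 1285 with the bias-adjusted method, 906 with library totals and 0 to 996 without each library. The counts without overlap, in alternatives also chosen after seeing the data, were 6655 higher and 2440 lower in TPM, and 4525 and 3341 in shares of counts. Deviations from the group mean of same-numbered libraries had correlations of -0.0597, 0.102 and 0.0476. Those of libraries with other numbers lay between -0.117 and 0.0771. With 3 libraries per group and the donors of the control libraries unknown, these values cannot show whether libraries shared animals. With a replicate block 5 transcripts were called over 12 libraries and 27 over the 2 groups, and of these 27, 1 was higher and 26 lower.

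The transcript ENSRNOT00000105301.1, at 0 counts in control, was not tested without any of the day 3 libraries, nor with at least 10 counts in each library, since it then missed the filter, so its p-values under other settings do not speak to its stability. In shares of counts, an alternative chosen after seeing the data, 65 transcripts in place of 22 held 50% of the loss and 215 in place of 371 held 50% of the gain. Counts were not summed per gene, since the tables used here do not pair transcript identifiers with genes.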
